A study of Homo sapiens with 6 samples.

Results

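The NRF2 pathway was followed through 9 genes, the factor NRF2 (gene NFE2L2), its adaptor KEAP1 and the antioxidant target genes NQO1, HMOX1, GCLC, GCLM, TXN, TXNRD1 and SRXN1. The members were found by their gene symbols, and all 9 were among the 25662 rows of the deposited table. Cells of HCT116, a human line established from a colorectal carcinoma, had received a control siRNA (labelled ctrl, n = 3, called control here) or an siRNA against RRN3 (labelled siRRN3, n = 3, called knockdown here). RRN3 recruits RNA polymerase I to the ribosomal RNA genes, and the comparison asks how these transcripts differ when it is depleted. All cultures grew in McCoy's 5a medium with 10% serum, while the sources used here give neither the siRNA dose and sequence nor the time after transfection. The design text calls the 3 samples of a group biological replicates.

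NRF2 is a transcription factor that is made and destroyed continuously. In unstressed cells the KEAP1 dimer holds it for the CUL3 ubiquitin ligase, and oxidants or electrophiles that modify KEAP1 cysteines let NRF2 build up, pair with a small MAF protein and bind antioxidant response elements. Its targets make glutathione, reduce thioredoxin and quinones, break down heme and supply NADPH. Much of this control acts on the NRF2 protein, which RNA sequencing does not measure.

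RRN3 was at 20.9, 14.7 and 14.1 TPM in control and at 2.70, 1.22 and 0.925 TPM in knockdown, or 9.73% of its control level. TPM is a length-scaled abundance relative to all transcripts of a library, so levels of different genes can be set side by side. Of the epithelial markers EPCAM, KRT8, KRT18, KRT19 and CDH1, all 5 were present, with a summed level of 5419 to 6472 TPM in control and 12344 to 13498 TPM in knockdown libraries. KRT8, KRT18 and KRT19 rose, while EPCAM and CDH1 did not pass (limma adjusted p = 0.716 and 0.182), and the part of that difference in the results below was not tested. The leukocyte, endothelial and fibroblast markers CD14, CD3E, PECAM1, VWF and COL3A1 did not exceed 0.553 TPM in any library, and COL1A1 was at 6.78 to 10.4 TPM. Both libraries numbered 1 stood apart along the second principal component, at 17.8 and 31.6 where the other 4 were below 0. In both, deviations from the group mean went against transcript GC content (correlations across genes of -0.45 and -0.50). Control replicate 2 and knockdown replicate 3 had correlations about as large with the opposite sign (0.41 and 0.45). Those of control replicate 3 and knockdown replicate 2 were 0.07 and 0.17. Members that rest on the 2 libraries numbered 1 are given with and without them.

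Among the members, 3 of 9 fell (NQO1, HMOX1 and KEAP1), 1 rose (TXN) and 5 did not pass the test. Over all 12157 tested genes 30.3% passed, 19.0% downward and 11.2% upward, so the single rise is at the background share. Rises were 37.2% of these calls, and 50.2%, 49.1% and 51.1% of them with median-of-ratios scaling, quantile normalization and removal of the GC trend. The members' median log2 change was -0.21, against -0.048 over all tested genes. Genes were tested with limma on log2(TPM + 1), which understates changes of low genes, and a gene rose or fell only if its Benjamini-Hochberg adjusted p over all tested genes was under 0.05. The TPM of the 2 groups did not overlap for 6 of 9 members, against 44.8% of tested genes, with 3 members higher in knockdown (17.9% of tested genes) and 3 lower (26.9%). In bulk RNA, fewer cells that express a gene and less RNA per cell cannot be told apart.

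**Figure D1:**
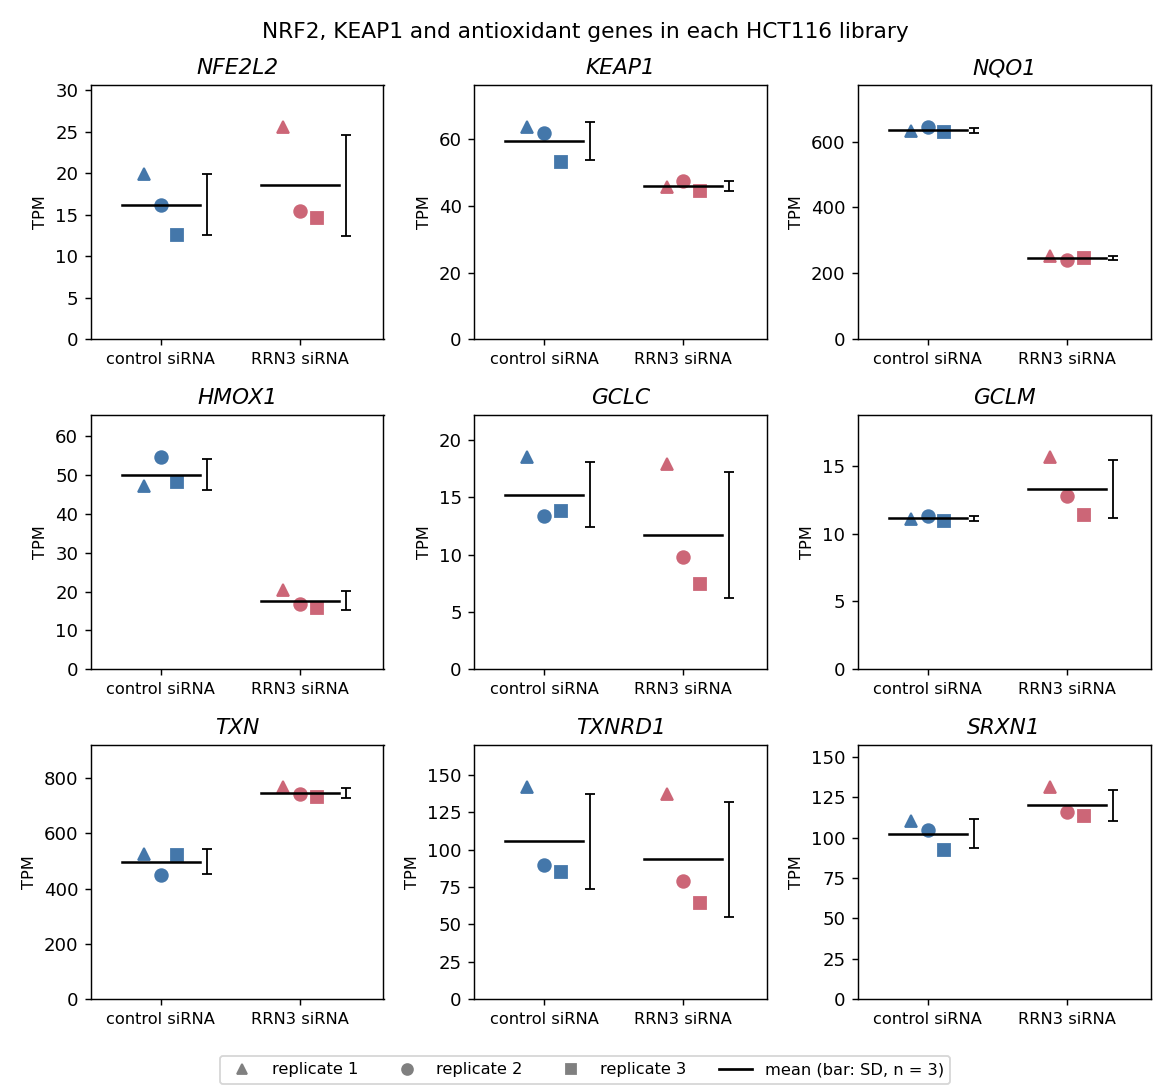
TPM of the 9 members in each library (linear axes from 0), with triangles, circles and squares for replicates 1, 2 and 3, horizontal lines for group means and bars for SD (n = 3). NQO1 was at 628 to 643 TPM in control and 241 to 252 TPM in knockdown libraries, while the replicate 1 triangles of NFE2L2, GCLC and TXNRD1 stand above the others of their group.

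Promoter windows are shown for KEAP1, NQO1 and TXN, which passed the test, and for GCLM and TXNRD1, which hold an antioxidant response element core, to set the element beside the direction of change. RefSeq (GRCh38.p14) gave 11 windows for 8 of the 9 members (all but HMOX1), each from 250 bases before to 50 bases after a start. The core searched was TGACNNNGC on both strands, and no match overlapped the AP-1 motif TGANTCA. A match stood in 4 of the 11 windows, those of GCLM, TXNRD1 (both starts) and 1 of the 2 starts of KEAP1, and in 13.3% of all 35116 RefSeq windows of this length. Each sequence runs on the strand of the gene from 250 bases before to 20 bases past the start, and capitals mark matches.
KEAP1, chr19:10502752-10503021, minus strand: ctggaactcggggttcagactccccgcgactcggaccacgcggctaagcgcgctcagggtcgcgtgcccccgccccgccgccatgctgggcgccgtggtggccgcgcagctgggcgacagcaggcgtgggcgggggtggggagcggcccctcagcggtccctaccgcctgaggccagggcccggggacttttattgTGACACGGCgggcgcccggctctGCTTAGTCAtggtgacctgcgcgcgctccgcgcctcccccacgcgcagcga
GCLM, chr1:93909411-93909680, minus strand: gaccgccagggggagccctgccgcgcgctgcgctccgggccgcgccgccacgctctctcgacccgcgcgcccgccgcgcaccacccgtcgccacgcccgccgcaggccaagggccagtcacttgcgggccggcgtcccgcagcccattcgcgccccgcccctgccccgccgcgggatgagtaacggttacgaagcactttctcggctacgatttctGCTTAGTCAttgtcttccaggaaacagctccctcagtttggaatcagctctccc
TXNRD1, chr12:104215529-104215798, plus strand: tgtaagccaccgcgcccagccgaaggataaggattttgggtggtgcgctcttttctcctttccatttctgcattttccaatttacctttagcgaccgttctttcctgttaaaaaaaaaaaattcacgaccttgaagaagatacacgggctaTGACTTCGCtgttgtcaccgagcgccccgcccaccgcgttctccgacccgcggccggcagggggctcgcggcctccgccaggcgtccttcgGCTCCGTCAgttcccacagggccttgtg
NQO1, chr16:69726541-69726810, minus strand: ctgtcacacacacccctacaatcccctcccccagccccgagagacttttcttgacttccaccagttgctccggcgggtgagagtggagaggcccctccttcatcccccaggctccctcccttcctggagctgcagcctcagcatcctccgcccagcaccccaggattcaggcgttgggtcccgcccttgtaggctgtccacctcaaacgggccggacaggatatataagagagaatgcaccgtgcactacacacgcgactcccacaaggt
TXN, chr9:110256488-110256757, minus strand: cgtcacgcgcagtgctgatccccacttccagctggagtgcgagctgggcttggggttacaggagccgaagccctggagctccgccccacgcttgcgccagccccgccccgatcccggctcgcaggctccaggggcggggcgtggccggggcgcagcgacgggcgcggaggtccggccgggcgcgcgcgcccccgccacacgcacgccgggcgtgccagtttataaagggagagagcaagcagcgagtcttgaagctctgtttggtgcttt

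The KEAP1 and GCLM windows carry the same 9 letters, GCTTAGTCA, starting at positions -31 and -34 from the start. KEAP1 fell (log2 change -0.36), while GCLM did not pass (log2 change 0.23). TXNRD1, with matches at -99 and -8 in the window shown and at -102 from its second start, did not pass either, and NQO1 and TXN, which moved in opposite directions, have no match in these windows. Response elements of NRF2 targets also lie further upstream, and the absence of these letters says nothing of the factor.

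NFE2L2 was at 19.9, 16.2 and 12.6 TPM in control and at 25.5, 15.5 and 14.6 TPM in knockdown. The groups overlapped, and replicate 1 was the highest of each group. The log2 change was 0.16 (SE 0.24, limma adjusted p = 0.66). Without knockdown replicate 1 the log2 change was -0.081 (limma adjusted p = 0.753), and without both libraries numbered 1 it was 0.069 (limma adjusted p = 0.76). In GRCh38 NFE2L2 spans bases 177227595 to 177392697 of chromosome 2, minus strand. AGPS, at 10.2 to 23.3 TPM, overlaps its start on the opposite strand, and the labels do not say whether counting used strand.

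KEAP1, the cysteine-rich adaptor that presents NRF2 to the ligase, was at 63.6, 61.8 and 53.1 TPM in control and at 45.7, 47.5 and 44.5 TPM in knockdown. Every knockdown library was below every control library. KEAP1 fell from 59.5 ± 5.62 to 45.9 ± 1.51 TPM (SD, n = 3), to 77.1% of control, with a log2 change of -0.36 (SE 0.09) and a limma adjusted p of 0.0224. This call ended with median-of-ratios scaling, without both libraries numbered 1 and after removal of the GC trend (limma adjusted p = 0.0995, 0.0511 and 0.0564). In these settings the log2 change was -0.28, -0.31 and -0.21, in the same order. The call also ended without control replicate 1 or 2 or knockdown replicate 2 or 3 (limma adjusted p = 0.0686, 0.0705, 0.0706 and 0.0685). Over all 6 single omissions the log2 change was -0.44 to -0.31. KEAP1 spans bases 10486120 to 10503741 of chromosome 19, minus strand.

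The ratio of NFE2L2 to KEAP1 TPM was 0.313, 0.262 and 0.238 in control. In knockdown it was 0.559, 0.326 and 0.329. The groups did not overlap, but knockdown replicates 2 and 3 lay only just above control replicate 1. The log2 ratio differed by 0.54 between the groups, with p = 0.1 in a two-sided exact permutation test, the smallest value that 3 against 3 libraries allow. Without knockdown replicate 1 the difference was 0.28, and without both libraries numbered 1 it was 0.39. The ratio was not computed with the GC trend removed. There the log2 changes of NFE2L2 and KEAP1 were 0.16 and -0.21, beside 0.16 and -0.36 as reported.

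NQO1, a cytosolic enzyme that reduces quinones with NADH or NADPH and a classical NRF2 target, had the highest level of the members in control cells. It was at 632, 643 and 628 TPM in control and at 252, 241 and 247 TPM in knockdown. The spread within each group was small beside the gap between them. NQO1 fell to 38.9% of its control level, a 2.57-fold fall from 634 ± 8.01 to 247 ± 5.36 TPM, with a log2 change of -1.36 (SE 0.06) and a limma adjusted p of 1.53e-05. Over the omissions of a single library the log2 change was -1.37 to -1.34. NQO1 spans bases 69706996 to 69726951 of chromosome 16, minus strand.

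HMOX1, heme oxygenase, breaks heme down to biliverdin, iron and carbon monoxide, and is repressed by BACH1 as well as activated by NRF2. It was at 47.2, 54.5 and 48.3 TPM in control and at 20.4, 16.9 and 15.8 TPM in knockdown. The groups were far apart, with the highest knockdown library below the lowest control. HMOX1 fell to 35.4% of its control level, a 2.83-fold fall, with a log2 change of -1.45 (SE 0.12) and a limma adjusted p of 0.000154. Without both libraries numbered 1 the log2 change was -1.60. HMOX1 spans bases 35380361 to 35394214 of chromosome 22, plus strand.

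**Figure D2:**
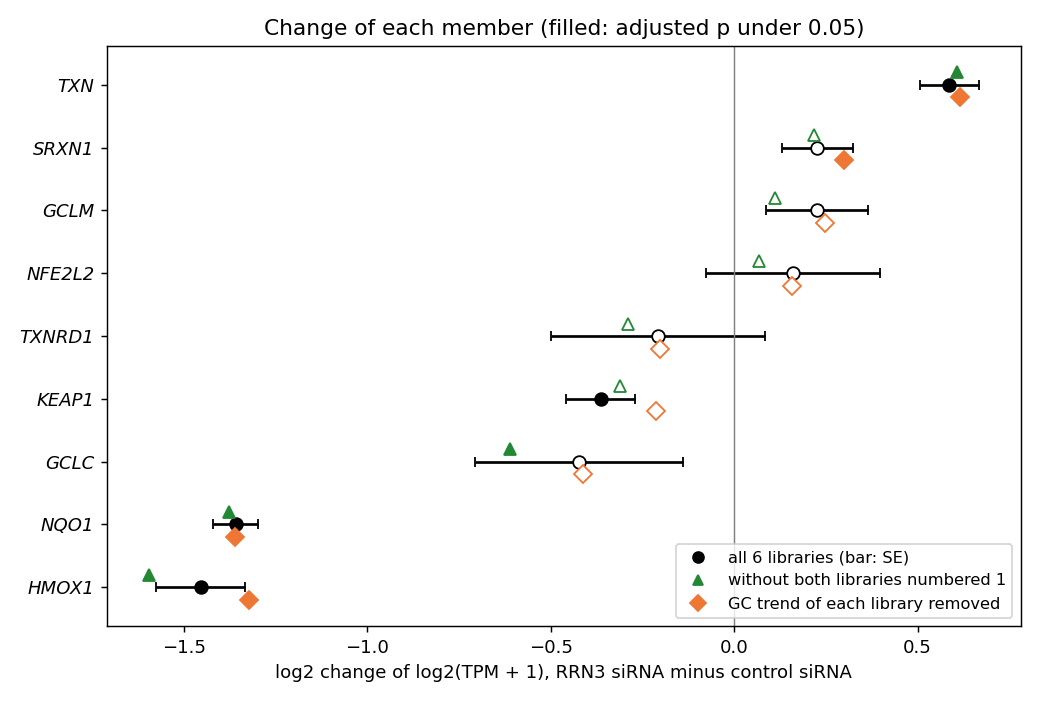
Log2 change of each member on the log2(TPM + 1) scale (x axis, knockdown minus control), with all 6 libraries (black circles, bars are SE), without both libraries numbered 1 (green triangles) and with the GC trend of each library removed (orange diamonds). Filled symbols have a limma adjusted p under 0.05. HMOX1, NQO1 and TXN are filled in all 3 fits, at -1.45, -1.36 and 0.59 for the black circles. KEAP1 is filled only as a black circle, GCLC only without both libraries numbered 1 and SRXN1 only with the GC trend removed.

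GCLC and GCLM encode the catalytic and the modifier subunit of glutamate-cysteine ligase, the rate-limiting enzyme of glutathione synthesis. GCLC was at 18.5, 13.4 and 13.8 TPM in control and at 17.8, 9.79 and 7.46 TPM in knockdown. The groups overlapped through knockdown replicate 1, and the log2 change was -0.42 (SE 0.28, limma adjusted p = 0.308). Without knockdown replicate 1 GCLC passed downward, with a log2 change of -0.75 (limma adjusted p = 0.00864), and without both libraries numbered 1 the log2 change was -0.61 (limma adjusted p = 0.00664). Without knockdown replicate 3 the log2 change was -0.17 (limma adjusted p = 0.661). GCLC spans bases 53497341 to 53616970 of chromosome 6, and GCLM bases 93885205 to 93909456 of chromosome 1, both on the minus strand.

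GCLM was at 11.1, 11.3 and 10.9 TPM in control and at 15.6, 12.8 and 11.4 TPM in knockdown. The knockdown libraries were all above the controls, the lowest of them narrowly. The log2 change was 0.23 (SE 0.14, limma adjusted p = 0.263), and was 0.11 without knockdown replicate 1. The ratio of GCLC to GCLM was 1.66, 1.19 and 1.26 in control and 1.14, 0.765 and 0.656 in knockdown. The groups did not overlap, with a difference in log2 ratio of -0.71. The two-sided exact permutation test gave p = 0.1, again the smallest it allows. Without both libraries numbered 1 the difference was -0.79.

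TXN encodes thioredoxin, the small protein that reduces disulfides in other proteins, TXNRD1 the selenoprotein that recharges it with electrons from NADPH, and SRXN1 sulfiredoxin, which rescues overoxidized peroxiredoxins. TXN was at 526, 447 and 521 TPM in control and at 766, 742 and 731 TPM in knockdown. Every knockdown library was above every control. TXN rose 1.5-fold, from 498 ± 43.7 to 746 ± 18.3 TPM, with a log2 change of 0.59 (SE 0.08) and a limma adjusted p of 0.0014. Its processed pseudogenes TXNP1, TXNP4, TXNP5 and TXNP6 did not exceed 1.03 TPM in any library. TXN spans bases 110243811 to 110256640 of chromosome 9, minus strand.

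TXNRD1 was at 142, 89.7 and 85.1 TPM in control and at 137, 78.9 and 64.5 TPM in knockdown. The groups overlapped, and replicate 1 was far above the others in both, at 1.62 times and 1.92 times the mean of replicates 2 and 3. The log2 change was -0.21 (SE 0.29, limma adjusted p = 0.645). Without control replicate 1 or knockdown replicate 3 the log2 change was 0.024 or 0.020 (limma adjusted p = 0.963 in both), and without both libraries numbered 1 it was -0.29 (limma adjusted p = 0.0641). TXN, its substrate, passed and TXNRD1 did not, and the difference between them was not tested. TXNRD1 spans bases 104215779 to 104350305 of chromosome 12, plus strand, and the pseudogene RPL18AP3, at 9.94 to 14.7 TPM, lies inside it.

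SRXN1 was at 110, 104 and 92.4 TPM in control and at 131, 116 and 113 TPM in knockdown. The groups did not overlap, and the log2 change was 0.23 (SE 0.10, limma adjusted p = 0.115). SRXN1 passed upward with median-of-ratios scaling, with quantile normalization, with mitochondrial and ribosomal protein genes taken out before rescaling and with the GC trend removed (limma adjusted p = 0.0457, 0.0304, 0.0349 and 0.00648). SRXN1 spans bases 646615 to 653370 of chromosome 20, minus strand. The protein-coding gene AL121758.1, at bases 646626 to 675800, overlaps it on the same strand and has no row among the deposited values. How reads were divided between them was not tested.

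In control cells the order of the levels was NQO1, TXN, TXNRD1, SRXN1, KEAP1, HMOX1, NFE2L2, GCLC and GCLM, from 634 to 11.1 TPM. The ranges of TXNRD1 and SRXN1, of KEAP1 and HMOX1 and of NFE2L2 and GCLC overlapped. Within each control library KEAP1 was above HMOX1, while the order of the other pairs changed between libraries. Differences between these neighbours were not tested. In knockdown libraries TXN was first, at 746 TPM, and NQO1 second, at 247 TPM, and their ranges did not overlap. The range of HMOX1 lay above that of NFE2L2 in control and overlapped it in knockdown, at 17.7 ± 2.43 beside 18.6 ± 6.06 TPM.

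Replicate 1 held the highest level of its group for 6 of 9 members in control and for 8 of 9 in knockdown libraries. The share of all tested genes with replicate 1 highest was not computed, so these counts cannot be read as particular to the members. GCLC had the largest gap between replicate 1 and the others after knockdown, with replicate 1 at 2.07 times the mean of replicates 2 and 3. NFE2L2 was at 1.70 times in knockdown, while KEAP1 was at 0.993 times and NQO1 at 1.03 times. In control these 3 genes were at 1.38, 1.11 and 0.994 times. The longest transcripts of GCLC, TXNRD1 and NFE2L2 have a GC content of 44.3, 44.8 and 45.6%, and that of KEAP1 60.3%. NQO1, with 46.0%, has a GC content close to that of NFE2L2 without such a gap. TXN (42.8%) was at 1.04 times in knockdown and 1.09 times in control, and GCLM (37.3%) at 1.29 times in knockdown and 0.999 times in control. HMOX1 (58.1%) was at 1.25 times in knockdown and 0.918 times in control. SRXN1 (53.6%) was at 1.15 times in knockdown and 1.12 times in control. A link between GC content and these gaps was not tested.

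By Pearson correlation of log2(TPM + 1) over the 6 libraries, among tested genes with a mean of at least 5 TPM, those most like NFE2L2 were SPRING1 (r = 0.9975), ASAP1 (r = 0.9959) and FECH (r = 0.9943). SPRING1 had, like NFE2L2, its highest level of each group in replicate 1, at 19.1 and 21.0 TPM. Those most like KEAP1 were CD40 (r = 0.9964), RCC2 (r = 0.9936) and GLUL (r = 0.9934), and RCC2 was at 123 to 151 TPM in control and 106 to 112 TPM in knockdown libraries. The 6 points fall into the 2 groups and share their libraries, so these values only describe the shape.

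Of 18 tested regulators and partners of NRF2, 2 rose (11.1%, against 11.2% of all tested genes), 1 fell (5.56%, against 19.0%) and 15 did not pass. BACH2 was below the minimum. The list's median log2 change was -0.047. NFE2L3, a relative of NRF2, rose from 14.5, 11.7 and 12.4 TPM to 29.6, 22.4 and 17.3 TPM (log2 change 0.77, SE 0.19, limma adjusted p = 0.0188). MAFF, a small MAF partner, rose from 21.6 ± 2.1 to 27.6 ± 0.648 TPM (limma adjusted p = 0.0418), and GSK3A, a kinase that marks NRF2 for a KEAP1-independent ligase, fell from 79.0 ± 10.4 to 59.6 ± 2.25 TPM (limma adjusted p = 0.0246).

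The ligase scaffold CUL3 was at 16.1 ± 2.25 TPM in control and 15.1 ± 5.75 TPM in knockdown libraries (limma adjusted p = 0.715). The autophagy receptor SQSTM1, which competes with NRF2 for KEAP1, was at 323 ± 47.3 and 367 ± 39.4 TPM (limma adjusted p = 0.291). BACH1, the repressor of HMOX1, was low, at 0.726 to 1.15 TPM in control and 0.929 to 2.30 TPM in knockdown libraries (limma adjusted p = 0.406). Its mean reached the minimum for testing only through knockdown. The small MAF gene MAFG (38.0 and 40.0 TPM) and NFE2L1 (102 and 91.1 TPM) had adjusted p values of 0.57 and 0.451 in limma. None of these 5 passed with the settings used for the reported calls. SQSTM1 and MAFG passed upward with the GC trend removed (limma adjusted p = 0.0323 and 0.0333), and NFE2L1 downward without control replicate 3 (limma adjusted p = 0.0424).

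The 3 calls among the regulators did not hold over every omission of 1 library, though their log2 changes kept their sign. These were 0.58 to 0.95 for NFE2L3, 0.27 to 0.40 for MAFF and -0.46 to -0.29 for GSK3A. Calls over all tested genes shifted too, from 3679 to 2230 without knockdown replicate 2 and to 4230 without knockdown replicate 1. Of the regulators 0 rose without control replicate 3 or knockdown replicate 2, and 0 fell without knockdown replicate 2 or 3. Without control replicate 1 or 2 or knockdown replicate 1 or 3, 1 rose, and without control replicate 2 or 3 or knockdown replicate 1, 2 fell. The NFE2L3 call ended without control replicate 2 or 3 or knockdown replicate 2 (limma adjusted p = 0.0837, 0.0633 and 0.0651). The GSK3A call ended without knockdown replicate 2 or 3 and with median-of-ratios scaling (limma adjusted p = 0.0925, 0.0678 and 0.0958). The MAFF call ended without control replicate 1 or 3, without any 1 of knockdown replicates 1, 2 and 3, and without both libraries numbered 1 (limma adjusted p = 0.0811, 0.113, 0.0747, 0.136, 0.0912 and 0.063). Without a variance trend the MAFF and GSK3A calls ended, and that of MAFF also without a filter (limma adjusted p = 0.0551, 0.0503 and 0.0546). CUL3 changed sign without knockdown replicate 3 (log2 change 0.070, limma adjusted p = 0.843).

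**Figure D3:**
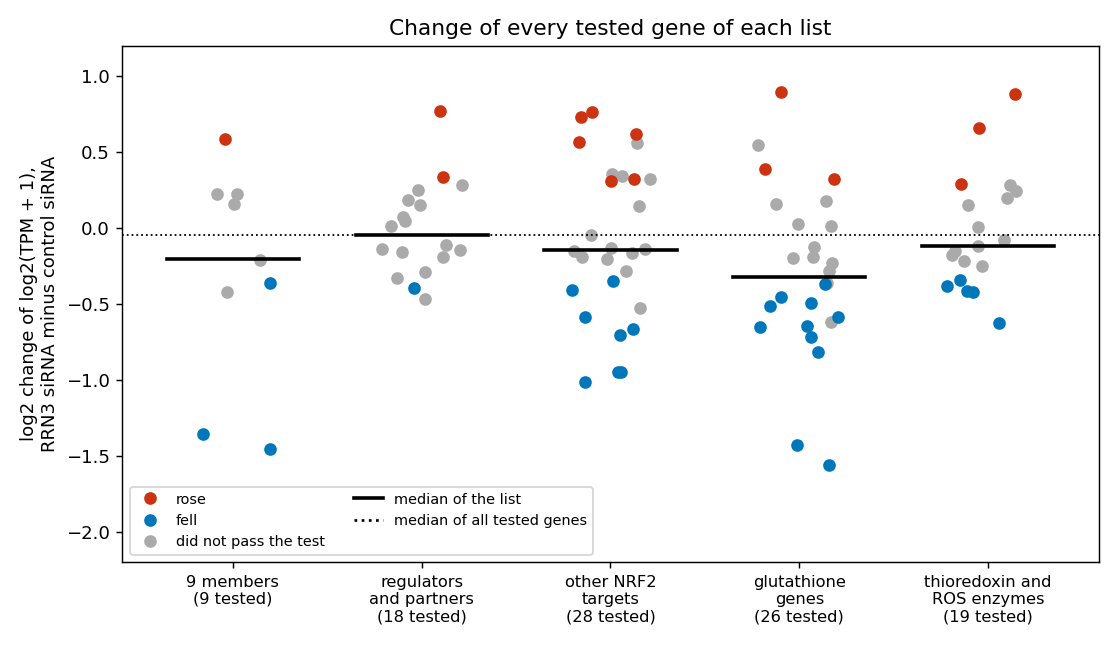
Log2 change on the log2(TPM + 1) scale (y axis, knockdown minus control) of every tested gene of the 9 members and the 4 wider lists, coloured by whether it rose, fell or did not pass the test. Thick lines are list medians (-0.32 for glutathione genes) and the dotted line is the median of all tested genes (-0.048). Points are spread sideways at random.

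Of 28 tested further NRF2 targets, 6 rose (21.4%), 8 fell (28.6%) and 14 did not pass, with a median log2 change of -0.14. The background was 11.2% upward and 19.0% downward. Both directions were thus present, as among the 9 members. A further 8 targets were below the minimum of a mean of 1 TPM and were not tested. AKR1B10, counted among the 6 rises, reached this minimum only through knockdown.

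The targets that fell included FTL, the ferritin light chain, from 3042, 3326 and 3434 TPM to 1664, 1654 and 1749 TPM (log2 change -0.95, SE 0.08, limma adjusted p = 0.000125). EPHX1, microsomal epoxide hydrolase, fell from 59.3 ± 5.75 to 30.2 ± 0.432 TPM, and PIR, pirin, from 37.4 ± 7.3 to 17.9 ± 2.3 TPM (limma adjusted p = 0.000349 and 0.00228). GSR, which reduces glutathione disulfide with NADPH, fell from 154, 147 and 124 TPM to 100.1, 85.0 and 74.9 TPM (log2 change -0.70, SE 0.13, limma adjusted p = 0.00476).

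The targets that rose included ABCC3, an efflux pump for conjugates, from 11.0, 10.5 and 9.56 TPM to 18.9, 18.3 and 16.4 TPM (log2 change 0.73, SE 0.12, limma adjusted p = 0.00283). TRIM16 rose from 37.1 ± 1.7 to 57.5 ± 1.78 TPM (limma adjusted p = 0.00112), while its close copy TRIM16L fell from 24.1 ± 1.21 to 15.8 ± 1.1 TPM (limma adjusted p = 0.00452), and reads can be split between these copies. CYP4F11 rose from 7.31 ± 1.12 to 11.3 ± 1.55 TPM (limma adjusted p = 0.0298). AKR1B10, an aldo-keto reductase, rose from 0.871 ± 0.575 to 2.09 ± 0.144 TPM (limma adjusted p = 0.035), and reached the minimum for testing only through knockdown.

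The CYP4F11 call ended without control replicate 2 or 3 or knockdown replicate 2 (limma adjusted p = 0.0762, 0.0905 and 0.0784). The AKR1B10 call ended without control replicate 2 or 3 or knockdown replicate 2 or 3 (limma adjusted p = 0.125, 0.113, 0.0945 and 0.0773). Both ended without a filter on low values (limma adjusted p = 0.0575 and 0.0749). The count of targets that rose was 3, 2, 2 and 3 without control replicate 2 or 3 or knockdown replicate 2 or 3, and the count that fell was 5 without knockdown replicate 2. PRDX1, an abundant peroxiredoxin of the cytosol, was at 1920 ± 158 TPM in control and 1742 ± 70.4 TPM in knockdown libraries (limma adjusted p = 0.249).

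**Figure D4:**
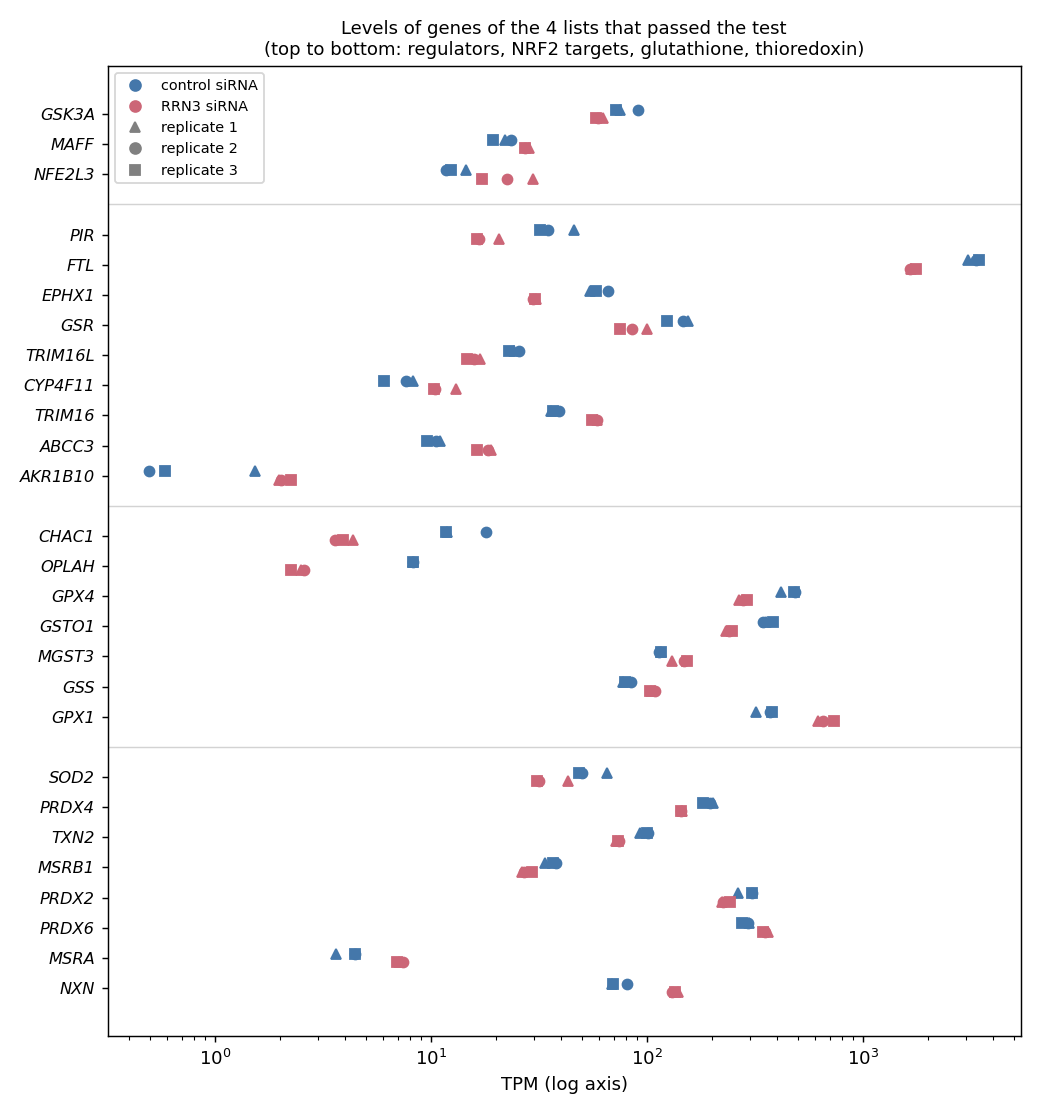
TPM per library (log axis) of the named genes of the 4 wider lists that passed the test, with control in blue and knockdown in red, and symbols for replicates 1, 2 and 3. FTL lies highest, at 1654 to 3434 TPM, and AKR1B10 lowest, at 0.495 to 2.25 TPM.

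Of 26 tested genes of glutathione synthesis, turnover and use, 11 fell (42.3%), 3 rose (11.5%) and 12 did not pass, with a median log2 change of -0.32. The background was 19.0% downward and 11.2% upward, so the rises were near the background share. Those that did not pass include a gene that reached the 1 TPM minimum only through knockdown and another only through control. OPLAH, which recycles 5-oxoproline to glutamate, fell from 8.27, 8.23 and 8.25 TPM to 2.50, 2.59 and 2.24 TPM (log2 change -1.43, SE 0.13, limma adjusted p = 0.000256). CHAC1, which degrades glutathione, fell 3.5-fold from 11.8, 17.9 and 11.7 TPM to 4.37, 3.58 and 3.89 TPM (log2 change -1.56, SE 0.19, limma adjusted p = 0.000757). OPLAH fell 3.38-fold in TPM.

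The 2 main glutathione peroxidases moved in opposite directions. GPX1, which reduces soluble peroxides, rose from 319, 370 and 380 TPM to 614, 652 and 729 TPM (log2 change 0.90, SE 0.10, limma adjusted p = 0.000465). GPX4, which reduces lipid peroxides in membranes, fell from 417, 484 and 476 TPM to 266, 278 and 290 TPM (log2 change -0.72, SE 0.08, limma adjusted p = 0.000577). Neither pair of groups overlapped. GPX1, like FTL and TXN, has processed pseudogenes that could take some of its reads.

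GSS, the second enzyme of glutathione synthesis, rose from 80.1 ± 3.77 to 105 ± 2.76 TPM (limma adjusted p = 0.00568). GSTO1, an omega-class transferase, fell from 359 ± 20.1 to 239 ± 7.66 TPM (limma adjusted p = 0.000797). MGST3, a membrane-bound transferase, rose from 115 ± 1.57 to 144 ± 11.6 TPM (limma adjusted p = 0.02). The MGST3 call ended with the GC trend removed, with median-of-ratios scaling and without control replicate 2 or 3 or knockdown replicate 2 or 3 (limma adjusted p = 0.171, 0.0644, 0.0554, 0.0539, 0.098 and 0.0735), and also without a variance trend (limma adjusted p = 0.058).

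Of 19 tested thioredoxin-system and reactive-oxygen genes, 3 rose (15.8%), 5 fell (26.3%) and 11 did not pass, with a median log2 change of -0.12. Over all tested genes 11.2% rose and 19.0% fell. NXN, nucleoredoxin, a relative of thioredoxin, rose from 68.6, 80.6 and 69.3 TPM to 139, 130.3 and 134 TPM (log2 change 0.88, SE 0.09, limma adjusted p = 0.00032). TXN2, the mitochondrial thioredoxin, fell from 97.5 ± 4.64 to 72.9 ± 1.04 TPM (limma adjusted p = 0.00444), the direction opposite to that of cytosolic TXN. PRDX4, the peroxiredoxin of the endoplasmic reticulum, fell from 193 ± 10.6 to 144 ± 1.56 TPM (limma adjusted p = 0.00333). MSRA, a methionine sulfoxide reductase, rose from 4.18 ± 0.478 to 7.16 ± 0.257 TPM, and PRDX6 from 288 ± 12.2 to 352 ± 8.34 TPM (limma adjusted p = 0.0094 and 0.0129).

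SOD2, the mitochondrial superoxide dismutase, fell from 54.4 ± 9.17 to 35.1 ± 6.69 TPM (limma adjusted p = 0.0221). Cytosolic SOD1 was at 515 ± 53.5 and 464 ± 13.8 TPM (limma adjusted p = 0.239), and catalase, CAT, at 35.8 ± 7.11 and 41.3 ± 9.07 TPM (limma adjusted p = 0.468). MSRB1, a selenium-dependent methionine sulfoxide reductase, fell from 36.1 ± 2.27 to 27.5 ± 1.51 TPM, and PRDX2 from 292 ± 25.8 to 229.6 ± 10.8 TPM (limma adjusted p = 0.0192 and 0.0193). The falls in this list depended on scaling, with 3 genes past the threshold under quantile normalization and 1 under median-of-ratios scaling.

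With median-of-ratios scaling the calls of TXN2, PRDX4, MSRB1 and PRDX2 ended (limma adjusted p = 0.0887, 0.0537, 0.15 and 0.246). The SOD2 call ended without control replicate 1 or 2 or knockdown replicate 2 or 3 (limma adjusted p = 0.0614, 0.0611, 0.0881 and 0.0599). Without control replicate 2, control replicate 3 or knockdown replicate 2 the MSRB1 call (limma adjusted p = 0.0574, 0.0595 and 0.0924) and the PRDX2 call (limma adjusted p = 0.064, 0.0682 and 0.0874) ended. The PRDX2 call also ended with quantile normalization, with mitochondrial and ribosomal protein genes taken out before rescaling, without a variance trend and with the GC trend removed (limma adjusted p = 0.057, 0.0574, 0.0573 and 0.093). The MSRB1 call also ended with quantile normalization and the SOD2 call without a filter (limma adjusted p = 0.0635 and 0.0552). The MSRA and PRDX6 calls ended without knockdown replicate 2 (limma adjusted p = 0.0565 and 0.0688), and that of PRDX6 also without a variance trend and with the GC trend removed (limma adjusted p = 0.0582 and 0.0717). Without knockdown replicate 2 the list held 1 gene that rose and 2 that fell, and 3 fell without control replicate 2 or 3.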

How the data were processed

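RNA sequencing of HCT116 cells with control siRNA (n = 3) or RRN3 siRNA (n = 3) was read from 1 table of 25662 gene symbols, which holds TPM computed by the authors. Per the labels' protocols, RNA was extracted with Trizol and ribosomal RNA was removed with Ribo-Zero, though the molecule is given as poly(A) RNA. STAR, Salmon and the GRCh38 build are named in the submitters' processing notes; the sources used here give no versions, annotation or filters. Since TPM carries no read totals, depth is unknown and counting intervals could not be given.

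Groups and replicate numbers came from the sample titles. Genes with a mean of at least 1 TPM over the 6 libraries (12157) were fitted as log2(TPM + 1) by group with limma 3.58.1 in R 4.3.3, with eBayes and an intensity trend. Benjamini-Hochberg adjustment ran over all of them, with a threshold of 0.05. Ratios of 2 genes were compared with exact permutation tests (scipy 1.17.1). The members and lists were chosen with earlier results of these data known. The text names the 9 members, 15 genes fixed for their role (1 of them is not reported here), up to 4 genes per list and direction with the smallest adjusted p, and the 3 tested genes with a mean of at least 5 TPM most like NFE2L2 and KEAP1. Gene coordinates and transcript GC content came from GENCODE 29. The fit was tested on simulated data.

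The alternatives were pseudocounts of 0.1 and 0.5, no filter and a mean of at least 5 TPM, quantile and median-of-ratios scaling, rescaling after removal of mitochondrial and ribosomal protein genes, eBayes without a trend or with robust moderation, a replicate block, and leaving out each library or both libraries numbered 1. Removal of the GC trend by loess (span 0.3) was chosen after seeing the data.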

Additional observations from a re-analysis of the deposited data

How the results depend on the processing

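NQO1, HMOX1 and TXN kept their direction and stayed past the threshold under all 18 alternatives. The split of calls over all genes depended on scaling: 37.2% of calls were rises as reported (1367 rose and 2312 fell), against 50.2% with median-of-ratios scaling (2055 rose), 49.1% with quantile normalization (2205 rose) and 51.1% with the GC trend removed (2743 rose). Members that rose numbered 2 in place of 1, with SRXN1 added, under these 3 settings, with mitochondrial and ribosomal protein genes taken out before rescaling and with the replicate block. Regulators that rose numbered 1 without a filter, 1 without a variance trend, 1 without both libraries numbered 1 and 5 with the GC trend removed; those that fell numbered 0 with median-of-ratios scaling, 0 without a variance trend and 2 without both libraries numbered 1. Other NRF2 targets that rose numbered 2 without a filter. Thioredoxin and reactive-oxygen genes that fell numbered 1 and 3 with median-of-ratios scaling and quantile normalization. Where 1 library at a time was left out, 785 to 1268 genes rose and 1445 to 2977 fell (785 and 1445 without RRN3 siRNA replicate 2, 893 rises without control siRNA replicate 3). Over these omissions 0 to 1 regulators rose and 0 to 2 fell, 2 to 4 other targets rose and 5 to 9 fell, and 1 to 3 thioredoxin and reactive-oxygen genes rose and 2 to 5 fell. Of the glutathione genes 2 to 3 rose and 8 to 15 fell, and of the 9 members 1 rose and 2 to 4 fell. Signs turned for NFE2L2 (log2 change -0.081 to 0.31 over the omissions), TXNRD1 (-0.52 to 0.024) and CUL3 (-0.41 to 0.070). The cause of these shifts was not tested.

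Replicate numbers were not shown to pair the samples: same-numbered deviations correlated at 0.419, 0.095 and 0.159, and control siRNA replicate 2 correlated best with RRN3 siRNA replicate 3 (0.194). With a replicate block 2295 genes rose and 3251 fell, 2 members rose and 4 fell, and 2 regulators fell; GCLC and SRXN1 passed (limma adjusted p = 0.0393 and 0.0226). With TPM alone, depth cannot be used to say which low values are reliable.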

Other observations

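Several NRF2-linked genes were listed near 0 in every HCT116 library, and TPM alone does not tell low expression from a loss in the gene-level summary. SLC7A11, the cystine importer that supplies glutathione synthesis, was at 0.183 to 0.333 TPM in control siRNA and 0.113 to 0.172 TPM in RRN3 siRNA libraries. The carbonyl reductase gene CBR1 did not exceed 0.0870 TPM and the glutathione peroxidase gene GPX2 did not exceed 0.1996 TPM. TXNIP, which binds and inhibits thioredoxin, did not exceed 0.225 TPM. CBR1, GPX2 and TXNIP were named after their values were seen, and all 4 were below the minimum for testing.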
